A study of Bos taurus with 11 samples.

Results

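Integrins are membrane receptors made of an alpha and a beta chain, and they fix cells to the extracellular matrix and to other cells. Each chain pair has its own ligands, among them laminins, collagens and proteins with the RGD motif such as fibronectin, and the inner tails are tied to actin by linker proteins such as talin. In the mammary gland, integrins hold the epithelium to its basement membrane and take part in duct growth and in the response to lactogenic hormones. The set described here holds the integrin chain genes together with CD44, the collagen receptors DDR1 and DDR2, dystroglycan, the syndecans and 4 cytoplasmic linkers, chosen by gene symbol. Of 18444 genes with a probe set of a single symbol, 37 were members, 25 of them integrin chains, and each had 1 probe set. ITGAX was not analysed here.

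The arrays were hybridised with RNA of mammary parenchyma, the duct tree with its supporting tissue, of female Holstein calves killed at 54 ± 2 days of age. The 6 elevated calves were fed milk replacer in 3 meals a day, 8.4 L on average, with a daily intake of 5.9 ± 0.2 Mcal (mean ± SE) of metabolisable energy. The 5 restricted calves were fed 4 L in 2 meals, with 2.8 ± 0.2 Mcal (mean ± SE). Both groups were offered starter grain from day 18, and amount and meal number cannot be told apart. Of 6 restricted calves, 1 had too little parenchyma to be sampled, which the labels put down to minimal gland development.

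Values are RMA values on a log2 scale, on which 1 unit is a 2-fold step in signal, and differences are elevated minus restricted. The number of arrays limits the precision. Array medians ran from 6.37 to 6.45. Calves are named by the number in their titles, and values of the restricted calves are listed in that order. The tissue was mixed, and 3 calves stood apart in markers of other cell types. Restricted 2 and restricted 4 had mean adipocyte marker levels of 10.20 and 9.68, against 7.21 to 8.73 in elevated calves and 8.17 to 8.51 in the other restricted calves. Their luminal epithelium marker means were 6.50 and 7.95, against 8.44 to 9.34 in elevated calves and 8.69 to 8.90 in the other restricted calves. Elevated 5 had the highest muscle marker mean, 7.40, and the lowest leucocyte marker mean, 6.76. Fewer cells of a type and less RNA per cell cannot be told apart in such tissue. Results that rest on these 3 calves are given with and without them.

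No member passed an adjusted p of 0.05 over all probe sets in limma, where 2 of 26773 probe sets (0.00747%) did. At an unadjusted p under 0.05 there were 7 members, or 18.9% of the 37, against 10.3% of all probe sets. Lower in elevated calves were ITGB8, ITGA5, ITGA1, ITGAV, SDC3 and DDR2, 6 of 37 where 5.33% of all probe sets were lower at this level. Higher was ITGB4 alone, 1 of 37 against 4.95% of all probe sets. With dim probe sets left out, 6 of the 32 remaining members were at this level, against 13.5% of all probe sets in that fit. The sign of the difference was negative for 24 members (64.9%), against 49.2% of all probe sets, and the members' median difference was -0.073, against 0.0031 over all probe sets. Elevated calves lay below every restricted calf for 3 members, ITGB8, ITGA5 and ITGAV (8.11%), against 0.751% of all probe sets. No member had all elevated calves above all restricted calves, which 0.53% of all probe sets had. In either direction, 1.28% of all probe sets had no overlap.

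**Figure D1:**
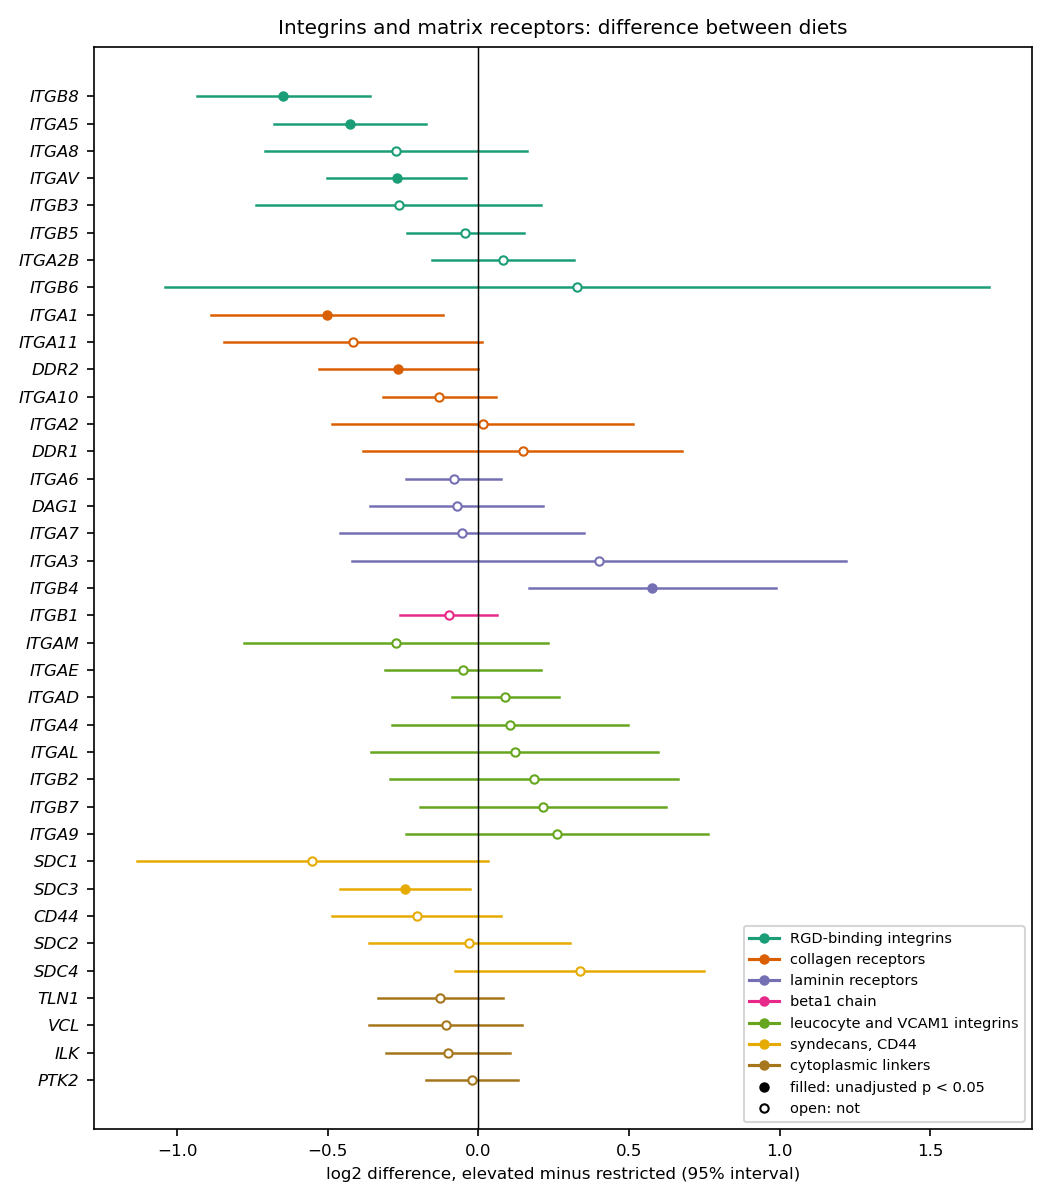
Log2 difference, elevated minus restricted, with its 95% interval for each of the 37 members, ordered by role; filled points have an unadjusted p under 0.05. ITGB8 lies farthest to the left at -0.65 and ITGB4 farthest to the right at 0.58, while ITGB6 has the widest interval, from -1.04 to 1.70.

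ITGB8 pairs with ITGAV in an integrin that binds latent TGF-beta and takes part in its activation. It stood lowest relative to restricted calves among all members. Elevated calves had a lowest value of 8.20, a median of 8.65 and a highest of 8.89, and restricted calves had 9.24, 9.32, 9.25, 9.24 and 9.17. The restricted calves were almost level with one another, and the groups did not overlap. The mean of elevated calves was 8.60 ± 0.29 (SD, n = 6) and that of restricted calves 9.25 ± 0.054 (SD, n = 5). The log2 difference was -0.65 ± 0.13 (SE; 95% interval -0.93 to -0.36), a signal 1.57-fold higher in restricted calves, and its limma adjusted p was 0.183. By p it ranked 55 of 26773 probe sets. Without restricted 2 and 4 the difference was -0.62, and without elevated 5 as well it was -0.54.

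ITGAV, the alpha chain that ITGB8 shares with several other beta chains, also had no overlap between the groups. Elevated calves had a lowest value of 9.84, a median of 10.34 and a highest of 10.43, and restricted calves had 10.52, 10.55, 10.59, 10.49 and 10.62. The difference was -0.27 ± 0.11 (SE), with a limma adjusted p of 0.423. The lowest value was that of elevated 5, without which the difference was -0.18. The other beta partners of ITGAV went different ways. ITGB3, also the partner of the platelet chain ITGA2B, differed by -0.26 (limma adjusted p = 0.711) and was at 8.63 in elevated 5, against 9.64 or more in the other elevated calves. With elevated 5 left out it differed by -0.074. ITGB5, a vitronectin receptor chain, lay within 0.41 of a log2 unit over all 11 calves, from 8.94 to 9.35, and differed by -0.044.

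ITGB6, the beta partner of ITGAV known from epithelia, had the largest spread of any member, 3.70 log2 units over the calves. Elevated calves had a lowest value of 7.35, a median of 8.69 and a highest of 9.58, and restricted calves had 9.44, 5.88, 9.17, 7.69 and 9.21. The 3 lowest values were those of restricted 2, elevated 5 and restricted 4. The difference was 0.33 ± 0.62 (SE; limma adjusted p = 0.887) with all calves, but -0.67 without restricted 2 and 4 and -0.41 without elevated 5 as well. ITGB6 and ITGB8 thus had differences of opposite sign with all calves and of the same sign without restricted 2 and 4. The gap between them was not tested.

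ITGA5 forms, with ITGB1, the classical fibronectin receptor. Elevated calves had a lowest value of 9.33, a median of 9.70 and a highest of 9.84, and restricted calves had 9.88, 10.32, 10.09, 10.15 and 10.02. Groups did not overlap, although elevated 4 and restricted 1 lay close together. Means were 9.66 ± 0.21 (SD, n = 6) and 10.09 ± 0.16 (SD, n = 5), a difference of -0.43 ± 0.11 (SE; 95% interval -0.68 to -0.18; limma adjusted p = 0.293). The highest values were those of the calves rich in adipocyte markers, restricted 2 and 4, and without them the difference was -0.33. ITGA8, a receptor chain for nephronectin, differed by -0.27 with a limma adjusted p of 0.670 and overlapped widely. It was highest in restricted 3, at 8.44, and without that calf the difference was -0.13. ITGA2B, the platelet chain, differed by 0.080. Its level of 6.08 to 6.68 stood around the array medians. Of 9 platelet markers, ITGA2B among them, 6 were measured higher and 3 lower, from SELP, which endothelium also makes, at 0.87 to TUBB1 at -0.24.

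**Figure D2:**
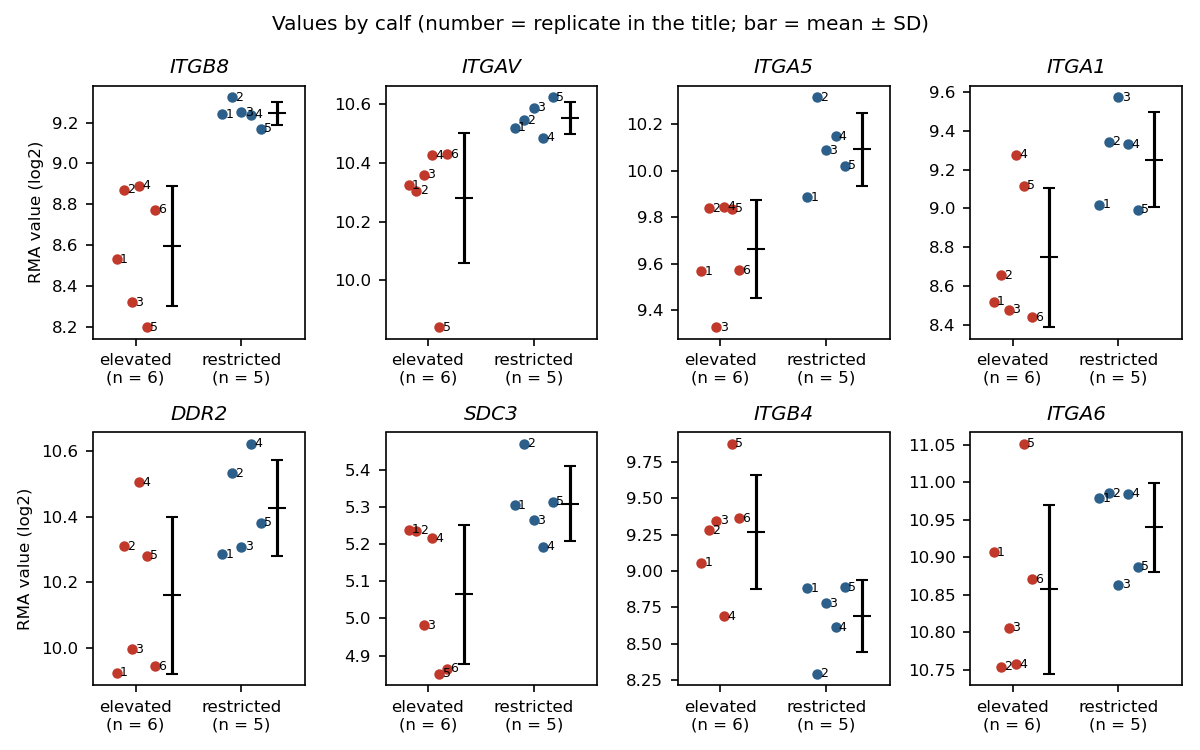
RMA values (log2) of 8 members in each calf, elevated left and restricted right, with the mean ± SD beside the points and the number from the sample title at each point. The groups do not overlap for ITGB8, ITGAV and ITGA5; ITGB4 is the member with higher elevated values, apart from elevated 4, and its partner ITGA6 stays within 0.30 of a log2 unit.

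Of the 6 collagen receptors, 4 were measured lower in elevated calves, ITGA1, ITGA11, DDR2 and ITGA10, and 2 had small positive differences, ITGA2 and DDR1. ITGA1, which with ITGB1 binds basement membrane collagen, had a lowest value of 8.44, a median of 8.59 and a highest of 9.28 in elevated calves, and 9.02, 9.34, 9.57, 9.33 and 8.99 in restricted calves. Elevated 4 and 5 overlapped with the restricted calves, and the other 4 elevated calves lay below all of them. The difference was -0.50 ± 0.18 (SE; limma adjusted p = 0.382), and -0.45 without restricted 2 and 4. DDR2, a receptor tyrosine kinase for fibrillar collagen, had elevated values of 9.92 at the lowest, 10.14 at the median and 10.50 at the highest. Restricted calves had 10.29, 10.53, 10.31, 10.62 and 10.38, with the highest in restricted 4 and 2. It differed by -0.27 ± 0.12 (SE; limma adjusted p = 0.486), and by -0.16 without those calves.

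ITGA11, a fibroblast receptor chain for fibrillar collagen, differed by -0.42 ± 0.20 (SE; limma adjusted p = 0.501). It too was highest in restricted 2 and 4, at 8.55 and 8.29, and without them it differed by -0.19. ITGA10, known best from cartilage, differed by -0.13. ITGA2, an epithelial collagen receptor chain, was at 7.91 in restricted 2 and between 8.61 and 9.28 in the other 10 calves. It differed by 0.014 with all calves and by -0.32 without restricted 2 and 4. DDR1, the epithelial relative of DDR2, was likewise lowest in restricted 2, at 6.84. It differed by 0.15 with all calves and by -0.24 without restricted 2 and 4. With single calves left out, the sign of DDR1 turned without restricted 2 (-0.075), and that of ITGA2 turned without restricted 2 (-0.23) and also without elevated 1 (-0.063). The part of low luminal markers in this was not tested.

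ITGB4 was the member with the largest positive difference. It pairs with ITGA6 to anchor basal epithelial cells to laminin at hemidesmosomes, and Schwann cells and endothelium also make it. Elevated calves had a lowest value of 8.69, a median of 9.31 and a highest of 9.87, and restricted calves had 8.88, 8.29, 8.78, 8.61 and 8.89. Elevated 4 lay within the restricted range and the other 5 elevated calves lay above it. Means were 9.27 ± 0.39 (SD, n = 6) and 8.69 ± 0.25 (SD, n = 5), a difference of 0.58 ± 0.19 (SE; 95% interval 0.17 to 0.99; limma adjusted p = 0.353). Restricted 2 was the lowest calf and elevated 5 the highest. Without restricted 2 and 4 the difference was 0.42, and without elevated 5 as well it was 0.30, with an unadjusted limma p of 0.0929. Elevated 5 also had the highest mean of endothelium markers, 9.29, against 8.38 to 8.78 in the other elevated calves and 8.30 to 9.06 in restricted calves. The 9.06 was that of restricted 2, the calf lowest in ITGB4. The basal marker mean was lowest in restricted 2, at 7.99, and next lowest in elevated 5, at 8.37. The part of these cell types in the ITGB4 difference was not tested.

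ITGA6, the only known alpha partner of ITGB4, varied little. It ranged from 10.75 to 11.05 in elevated and from 10.86 to 10.99 in restricted calves, a difference of -0.082 ± 0.072 (SE; limma adjusted p = 0.735). The interval of that difference, -0.24 to 0.076, and the interval of ITGB4 did not overlap, but the gap between the chains was not tested. ITGA3, an epithelial laminin receptor chain, had a difference of 0.40 ± 0.37 (SE; limma adjusted p = 0.752) that rested on restricted 2 and 4, at 7.18 and 8.32, against 8.55 to 9.58 in elevated calves and 9.16 to 9.44 in the other restricted calves. With these calves left out it differed by -0.21. ITGA7, the laminin receptor chain of muscle, differed by -0.055 and was at 7.49 in elevated 5, the calf highest in muscle markers, and at 7.47 in restricted 3, which had the lowest muscle marker mean, 5.40. DAG1, which encodes dystroglycan, differed by -0.073 and ranged from 10.52 to 10.98 in elevated and from 10.38 to 11.11 in restricted calves. The DAG1 difference was -0.24 without restricted 2 and 4, and with single calves left out it ran from -0.19 (without restricted 2) to -0.0054 (without restricted 1).

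ITGB1, the chain that most matrix-binding alpha chains share, was among the steadiest members, with 11.23 to 11.42 in elevated and 11.27 to 11.51 in restricted calves. It differed by -0.10 ± 0.073 (SE; limma adjusted p = 0.675), and without restricted 2 and 4 by -0.18, with no overlap between the groups. Among 23 known chain pairs that could be read here, both chains were lower in elevated calves in 11, both were higher in 3, and the signs were opposite in 9. All 3 pairs with both chains higher were leucocyte integrins. Without restricted 2 and 4, ITGB2, ITGAL and ITGA4 differed by -0.075, -0.063 and -0.072. None of those 3 pairs then had both chains higher. As ITGB1 stands in 12 of the 23 pairs and ITGAV in 5, the pair counts are not independent of one another. The pair whose negative differences were largest in sum was ITGAV with ITGB8.

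Leucocyte integrins and ITGA9, which like ITGA4 binds VCAM1, showed no member at an unadjusted p under 0.05, and 6 of these 8, ITGA9 included, were measured higher in elevated calves. ITGB2, the beta chain common to leucocyte integrins, had a lowest value of 7.40, a median of 7.92 and a highest of 8.64 in elevated calves, and 7.91, 7.39, 8.05, 7.30 and 8.02 in restricted calves. It differed by 0.19 ± 0.22 (SE; limma adjusted p = 0.809), by -0.075 without restricted 2 and 4, and by 0.041 without elevated 3, the highest calf. Elevated 5 and restricted 2 and 4 were the 3 lowest calves, as they were for the leucocyte marker mean. Its partners ITGAL, of lymphocytes, and ITGAD, of macrophages, differed by 0.12 and 0.089. All ITGAD values, 4.71 to 5.10, lay under the array medians. ITGAM, of neutrophils and macrophages, differed by -0.27 and was at 6.14 in elevated 5, against 6.89 or more in the other elevated calves. Without elevated 5, ITGAM differed by -0.086. ITGAL turned to -0.063 without restricted 2 and 4.

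ITGB7, which with ITGAE or ITGA4 guides lymphocytes to mucosa, differed by 0.21, ITGA4 by 0.10 and ITGAE by -0.051. With restricted 2 and 4 left out, ITGA4 differed by -0.072 and ITGB7 by 0.013. ITGA9 is a receptor chain for tenascin and VCAM1 that is best known from lymphatic endothelium and smooth muscle. It had 8.66 to 9.87 in elevated and 8.44 to 9.57 in restricted calves, with the highest value in elevated 5, and differed by 0.26 ± 0.23 (SE; limma adjusted p = 0.735). This was 0.50 without restricted 2 and 4, with an unadjusted limma p of 0.0741, but 0.11 without restricted 1. Leucocyte markers as a list had 8 of 17 genes higher, 9 lower and 0 past the threshold in limma, with a median difference of -0.0077. At an unadjusted p under 0.05, 1 was higher and 1 lower (11.8%, against 10.3% of all probe sets).

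Syndecans carry heparan sulfate chains and act beside integrins as receptors for matrix and growth factors. SDC3 was measured lower in elevated calves, at 4.85 for the lowest, 5.10 for the median and 5.24 for the highest, against 5.30, 5.47, 5.26, 5.19 and 5.31 in restricted calves. All its values lay under the array medians, a range in which RMA compresses differences, and restricted 4 lay among the elevated calves. The difference was -0.24 ± 0.10 (SE; limma adjusted p = 0.435). SDC1, the main syndecan of epithelium, differed by -0.55 ± 0.27 (SE; limma adjusted p = 0.514). It was at 7.72 in elevated 5, 9.05 to 9.45 in the other elevated calves and 9.28 to 9.76 in restricted calves. Without elevated 5 it differed by -0.30, with a limma unadjusted p of 0.0271 and an adjusted p of 0.467.

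SDC4, the syndecan of focal adhesions, went the other way, by 0.34 ± 0.19 (SE; limma adjusted p = 0.576). It was lowest in restricted 2 and 4, at 9.57 and 9.85, and without them the difference was 0.10. SDC2, a mesenchymal syndecan, had the reverse pattern, with 10.73 and 10.69 in restricted 2 and 4 and 9.95 to 10.21 in the other restricted calves, against 10.18 to 10.55 in elevated calves. It differed by -0.030 with all calves and by 0.23 without restricted 2 and 4. CD44, the hyaluronan receptor, had 11.00 to 11.64 in elevated and 11.33 to 11.81 in restricted calves. It differed by -0.21 ± 0.13 (SE; limma adjusted p = 0.617), with elevated 5 lowest, by -0.12 without elevated 5 and by -0.31 without restricted 2 and 4.

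**Figure D3:**
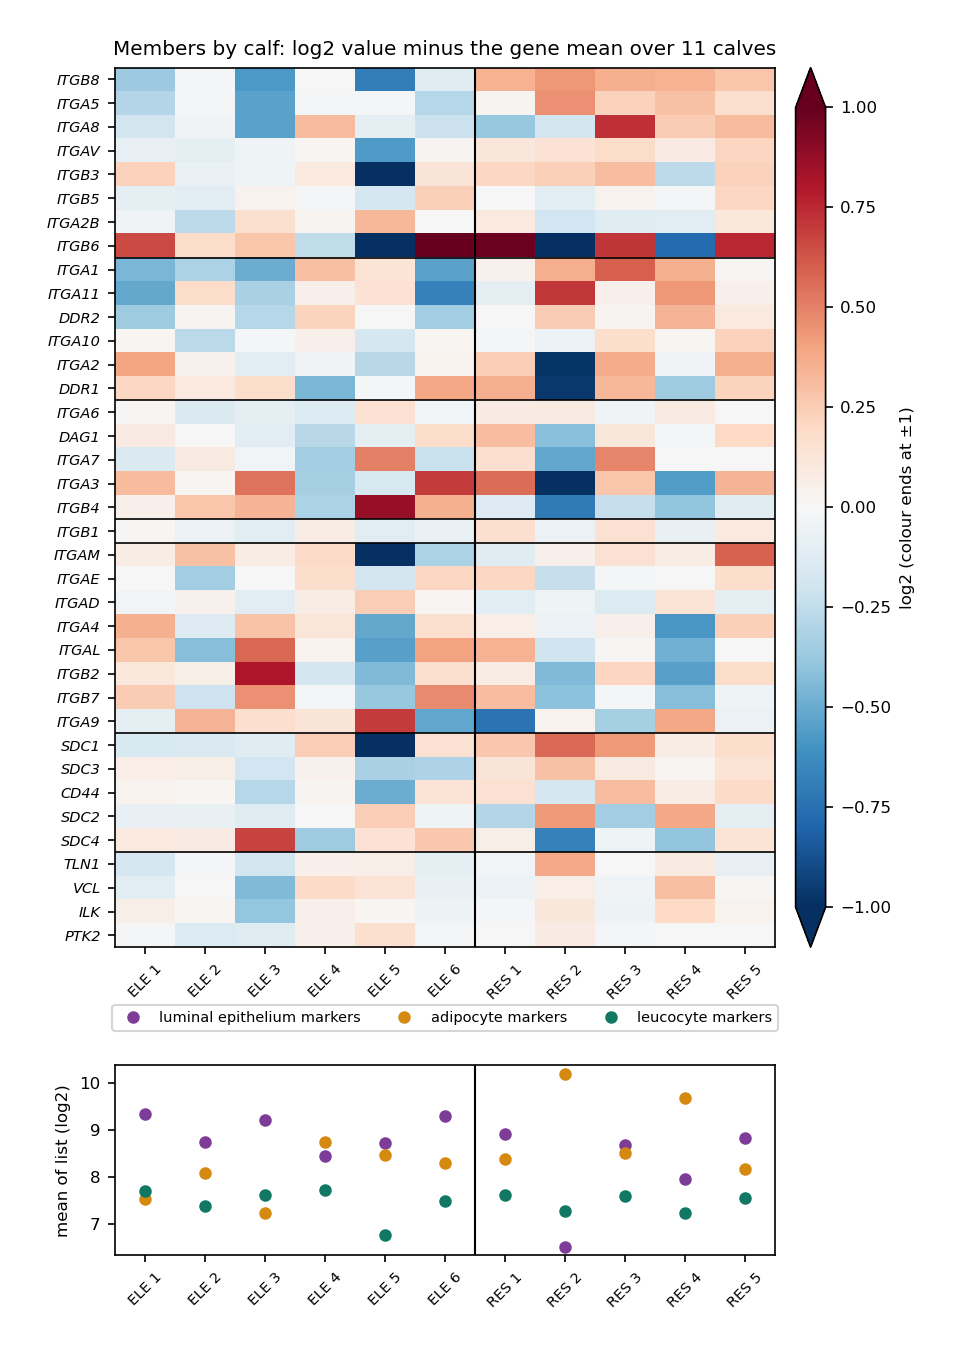
Each member's log2 value minus its own mean over 11 calves (top, colour ending at ±1; ELE elevated, RES restricted, rows by role in the order of the plot of differences) and the mean log2 level of 3 marker lists in the same calves (bottom). ITGB6, ITGA3, ITGA2, DDR1 and SDC4 are low in RES 2, where the luminal mean is 6.50. ITGB8, ITGAV, ITGA5, ITGA1, DDR2, SDC1 and SDC3 are above their own means in all 5 restricted calves.

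The cytoplasmic linkers had small differences. All 4 were measured lower in elevated calves, with log2 differences of -0.13 to -0.023, and the smallest limma adjusted p among them was 0.681. TLN1, which encodes talin, differed by -0.13 ± 0.094 (SE) and was highest in restricted 2, at 10.40. This became -0.017 without restricted 2 and 4. VCL, the gene of vinculin, differed by -0.11, and ILK, a scaffold on integrin tails, by -0.10. Without elevated 3, the calf lowest in both, these were -0.031 and -0.034, and without restricted 2 and 4 they were -0.025 and -0.033. PTK2, the gene of focal adhesion kinase, ranged from 9.02 to 9.31 in elevated and from 9.13 to 9.23 in restricted calves and differed by -0.023, with a 95% interval of -0.17 to 0.13.

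Of the 37 members, elevated 5 had the lowest value in 9 and the highest in 7, and restricted 2 the lowest in 8 and the highest in 7. Elevated 4 had neither extreme in any member, and each of the other 10 calves had at least 1. Members lowest in restricted 2 were DAG1, DDR1, ITGA2, ITGA3, ITGA7, ITGB4, ITGB6 and SDC4, and those lowest in elevated 5 included ITGAV, ITGB3, ITGB8, SDC1, CD44, ITGAL and ITGAM. Without restricted 2 and 4, 30 members (81.1%) were lower in elevated calves, against 48.7% of all probe sets, and 4 had an unadjusted p under 0.05, ITGA2, ITGA5, ITGB1 and ITGB8, all lower. These were 10.8% of the members, close to the 8.72% of all probe sets at this level in that comparison. In that comparison 6 members had elevated calves below all restricted calves (16.2%), against 3.04% of all probe sets, and with elevated 5 left out too there were again 6, against 3.85% of all probe sets. The members at an unadjusted p under 0.05 in this last comparison were ITGA1, ITGA5, ITGA7, ITGAV, ITGB8 and SDC1, all lower. These were 16.2% of the members, against 9.19% of all probe sets.

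**Figure D4:**
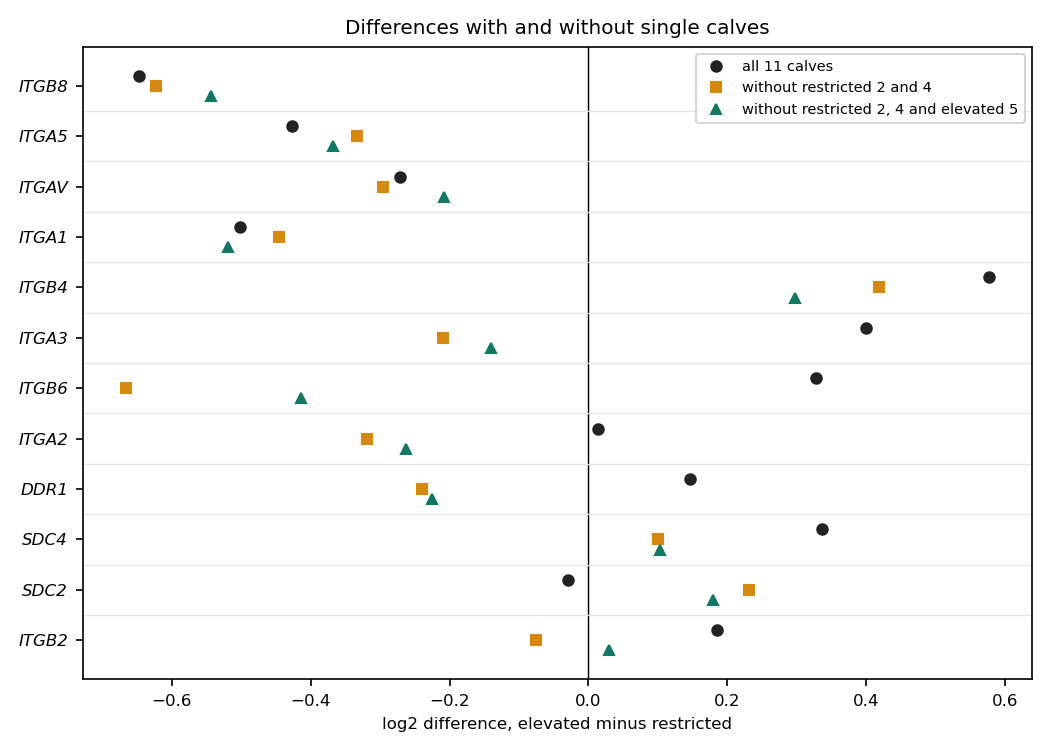
Log2 difference, elevated minus restricted, of 12 members with all 11 calves (circles), without restricted 2 and 4 (squares) and without elevated 5 as well (triangles). ITGB8, ITGA5, ITGAV and ITGA1 stay below 0 and ITGB4 above 0 in all 3, whereas ITGA3, ITGB6, ITGA2 and DDR1 turn from positive to negative and SDC2 from negative to positive.

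The lists of further genes described from here on were chosen with earlier results of these data known. Genes of integrin ligands were measured lower more often than higher. Of 44, 29 were lower and 15 higher in elevated calves, 0 passed the threshold in limma, and the median difference was -0.20 against 0.0031 over all probe sets. At an unadjusted p under 0.05, 15 were lower and 2 higher, 38.6% of the list against 10.3% of all probe sets (5.33% lower and 4.95% higher). The laminin chain genes LAMB1, LAMC1 and LAMA2, which make ligands of receptors such as dystroglycan, differed by -0.46, -0.27 and -0.49. LAMB1 was at 11.13 ± 0.15 (mean ± SD) in the 6 elevated and 11.59 ± 0.083 in the 5 restricted calves, with no overlap and a limma adjusted p of 0.157. COL18A1, a basement membrane collagen, differed by -0.59 and ADAM9, a membrane protease that binds integrins, by -0.39. When restricted 2 and 4 were left out, 26 of the 44 were lower, with a median of -0.11 and 6 lower and 4 higher at an unadjusted p under 0.05. Of all probe sets, 4.76% were lower and 3.96% higher at this level in that comparison. LAMA2 then differed by -0.72 and was 1 of 25 probe sets of the whole array past the threshold (limma adjusted p = 0.0272), but it did not pass without elevated 5 as well (limma adjusted p = 0.0528). Without restricted 2 and 4, LAMB1, COL18A1, LAMC1 and ADAM9 differed by -0.43, -0.74, -0.20 and -0.27. Among alternatives, LAMB1 passed the threshold only without elevated 4 (limma adjusted p = 0.0498), where 12 probe sets of the whole array did.

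Other matrix receptors had 18 of 24 genes lower and 0 past the threshold, with a median of -0.20. At an unadjusted p under 0.05, 6 were lower and 1 higher (29.2%, against 10.3% of all probe sets). Among the 24 were sarcoglycans, membrane partners of dystroglycan. SGCA was at 4.72 ± 0.24 (mean ± SD) in the 6 elevated and 5.27 ± 0.23 in the 5 restricted calves, a difference of -0.55 (limma adjusted p = 0.269) at a level under the array medians and with no overlap. SGCD differed by -0.47 and NRP1, a co-receptor of semaphorins and VEGF, by -0.24. The list also held SDCBP2, a syntenin that is not itself a receptor, which differed by -0.29. BCAM, a laminin receptor, differed by 0.43. When restricted 2 and 4 were left out, 16 of the 24 were lower, with 1 at an unadjusted p under 0.05 (against 8.72% of all probe sets). SGCA, SGCD, NRP1, SDCBP2 and BCAM then differed by -0.43, -0.34, -0.22, -0.22 and 0.20.

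Adaptors of adhesion plaques did not lean the same way. Of 37, 16 were lower and 21 higher, and 0 passed the threshold in limma. Only 2 (5.41% of the list), both lower, had an unadjusted p under 0.05, against 10.3% of all probe sets (5.33% lower). These were LIMS1, the PINCH adaptor that binds ILK, at -0.37 (limma adjusted p = 0.334), and RSU1, which binds PINCH, at -0.18 with no overlap between the groups. PTK2B, the kinase related to focal adhesion kinase, differed by 0.51, KANK1 by -0.33 and CRK by -0.13. With restricted 2 and 4 left out, LIMS1, RSU1, PTK2B, KANK1 and CRK differed by -0.21, -0.17, 0.23, -0.26 and -0.062. Integrin-associated membrane partners had 10 of 18 lower and 0 past the threshold in limma. At an unadjusted p under 0.05, 1 was lower and 2 were higher (16.7%, against 10.3% of all probe sets). The tetraspanins CD82, CD9 and CD151 differed by 0.22, 0.53 and 0.20, LGALS3, the gene of galectin-3, by 0.57, and BSG, the gene of basigin, by -0.43. In the absence of restricted 2 and 4, CD9, LGALS3 and BSG differed by 0.18, 0.21 and -0.14, and CD82 and CD151 by 0.19 and 0.30. Ligands of leucocyte integrins had 3 of 8 lower, with 0 past the threshold in limma and 0 at an unadjusted p under 0.05. The largest difference among them was 0.89 for CDH1, the ligand of the ITGAE and ITGB7 pair and itself an epithelial gene, and it was 0.044 without restricted 2 and 4.

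Among the other marker lists, with 0 genes past the threshold in each, adipocyte markers had 16 of 18 genes lower with a median of -1.05 and luminal markers 17 of 18 higher with a median of 0.89. Basal and myoepithelium markers had 6 of 11 lower (median -0.10), skeletal muscle markers 16 of 16 higher (median 0.80), endothelium markers 5 of 12 lower (median 0.059) and platelet markers 3 of 9 lower (median 0.019). At an unadjusted p under 0.05, adipocyte markers had 8 genes lower and 1 higher, luminal markers 7 higher, muscle markers 9 higher, basal and endothelium markers 1 lower each and platelet markers 1 higher. Of all probe sets, 5.33% were lower and 4.95% higher at this level. Without restricted 2 and 4 the adipocyte, luminal and basal medians were -0.28, 0.25 and -0.34. The muscle, endothelium and platelet medians were then 0.99, 0.19 and 0.048. Without elevated 5 as well the muscle median was 0.79. The part of cell makeup in the members' differences was not tested.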

How the data were processed

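Gene expression was measured on 1-colour arrays of 11 calves. The authors deposited log2 values per probe set, made with RMA per the submitters' processing notes (no version or setting is named); the log2 scale was read from the values. RMA fits arrays to a common distribution and cannot show a change in the RNA content of cells. Of 26773 probe sets, 8680 hold a value that at least 2 arrays share, as do 7 members. Genes were named by the platform annotation; 36 of 37 members matched a reference gene table (assembly ARS-UCD2.0) by gene number, with the same symbol, and ITGA7 was named by the annotation alone. No sequence or coordinate was used here.

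The members and lists were chosen with earlier results of these data known. Every member is described. Of each further list up to 5 genes with the smallest p are named, beside list counts. Of the platelet markers, those with the most positive and the most negative difference are named. limma 3.58.1 (R 4.3.3) was fitted to all probe sets with no filter or covariate, with Benjamini-Hochberg adjustment and a threshold of 0.05; SEs are moderated. The fit was tested on simulated data with independent noise in each probe set. Such data hold no shifts that many genes share in a calf, so the test does not cover these. Arrays come from different calves per the labels. Alternatives were quantile normalization, a filter on dim probe sets, trended robust variance, array weights, a replicate block, the mean over probe sets, and leaving out calves. Counts of sign and overlap without calves were added after seeing the data.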

Additional observations from a re-analysis of the deposited data

Results flagged for a closer look

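Among the 74 sets of calves looked at (each member in each group), 7 held a calf far from the others of its group. Chance gives such a gap in about 1 set in 20 for a single set of normal values. The sets share the same calves and are not independent, so the count of 7 was not tested against that rate. Elevated 5 was that calf in 4 of the 7. In elevated calves it was at 9.84 for ITGAV, with the next at 10.31, at 8.63 for ITGB3, with the next at 9.64, and at 7.72 for SDC1, with the next at 9.05. For SDC2 it was the highest, at 10.55, with the next at 10.29. Elevated 3 was lowest for ILK, at 10.43, with the next at 10.77. In restricted calves, restricted 4 was lowest for ITGB3, at 9.45, with the next at 9.91, and restricted 2 was highest for PTK2, at 9.23, with the next at 9.15.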

How the results depend on the processing

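No member passed the threshold in limma under any of the 19 alternatives, and ITGB8 had the smallest adjusted p of the members in all 19, from 0.0776 to 0.378. The sign held under every alternative for 24 members and changed under at least 1 for 13. Not all alternatives could change a sign. The dim filter, trended robust variance and, with 1 probe set a member, the mean over probe sets left each member's difference as it was. The replicate block gave the same differences as leaving out elevated 6. The count of called probe sets was 4 with array weights, 0 with the replicate block, 25 without restricted 2 and 4 and 15 without elevated 5 as well, and 0 to 12 with 1 calf left out. Members at an unadjusted p under 0.05 numbered 4 without restricted 2 and 4 (10.8%, against 8.72% of all probe sets). Without elevated 5 as well they numbered 6 (16.2%, against 9.19%), all lower. With 1 calf left out they numbered 4 (without restricted 5; 10.8%, against 9.95%) to 10 (without elevated 4; 27.0%, against 12.2%). The members' median ran from -0.12 to -0.056, the number of lower members from 22 to 26 and the number with no overlap from 3 to 4 with 1 calf left out; the last was 6 without restricted 2 and 4 and 6 without elevated 5 as well. The share of all probe sets with elevated calves below all restricted calves was 0.919% to 1.86%, 3.04% and 3.85% in these comparisons, against 0.751% with all calves. SDC2 turned to 0.00056 with quantile normalization and 0.021 with array weights, and ITGA2 to -0.10 with array weights. Without restricted 2 and 4 the sign turned for DDR1 (-0.24), ITGA2 (-0.32), ITGA3 (-0.21), ITGA4 (-0.072), ITGAL (-0.063), ITGB2 (-0.075), ITGB6 (-0.67) and SDC2 (0.23), and without elevated 5 as well for DDR1 (-0.22), ITGA2 (-0.26), ITGA2B (-0.051), ITGA3 (-0.14), ITGB6 (-0.41) and SDC2 (0.18). With 1 calf left out the ranges of members whose sign changed were DDR1 -0.075 to 0.26, ITGA2 -0.23 to 0.11, ITGA4 -0.028 to 0.22, ITGA7 -0.19 to 0.059, ITGAE -0.12 to 0.014, ITGB5 -0.096 to 0.0018, ITGB6 -0.27 to 0.62, PTK2 -0.056 to 0.0020 and SDC2 -0.12 to 0.073. The cause of these shifts was not tested. The replicate numbers were not shown to pair the calves: deviations of same-numbered calves correlated from -0.15 to 0.21 over the probe sets, and with the replicate block ITGB8 differed by -0.68 with an adjusted p of 0.320. With dim probe sets left out, 32 members remained.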
